A study of Homo sapiens with 4 samples.

Results

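Transcripts of the insulin-like growth factor (IGF) axis were followed in A673, an established human Ewing sarcoma cell line, after exposure to the curaxin CBL0137. The members are 10 genes chosen by symbol, namely the ligand IGF1, the receptors IGF1R, INSR and IGF2R, the receptor substrates IRS1 and IRS2, and the binding proteins IGFBP2, IGFBP3, IGFBP4 and IGFBP5. Each matched 1 Ensembl identifier among the 60617 genes of the count table, and all 10 passed the filter on low counts that left 17309 genes tested. The study compared 2 RNA-seq libraries from cells given CBL0137 at 1 µM with 2 libraries from cells given DMSO, both for 24 h and both grown in DMEM with fetal bovine serum and antibiotics. CBL0137 binds DNA and traps on chromatin the histone chaperone FACT, and DMSO is its solvent. One cell line stands for the tumour here, and whether the 2 libraries of a condition are separate cultures is not stated in the labels. The p-values therefore rest on the spread from library to library, which may be technical only.

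IGF1 and IGF2 are secreted peptides that bind IGF1R, a receptor tyrosine kinase closely related to the insulin receptor INSR, with which it can form hybrid receptors. The activated kinases phosphorylate the docking proteins IRS1 and IRS2, which recruit PI3-kinase and start AKT and mTORC1 signalling. IGF2R takes IGF2 to the lysosome and does not signal as a kinase, and the IGFBP proteins hold IGFs outside the cell until proteases cleave them. Ewing sarcoma cells are known to depend on IGF1R, and the fusion protein EWS-FLI1 is known to repress IGFBP3. Serum in the medium is itself a source of IGFs.

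Reads assigned to genes ran from 20483714 to 23373554 per library. A gene was called where its Benjamini-Hochberg adjusted p was under 0.05 and its fold change above 1.5 in edgeR's quasi-likelihood test. Markers of Ewing sarcoma, among them CD99, NR0B1 and NKX2-2, were present in every library. Their summed level over 8 genes was 3160 to 3282 CPM (counts scaled to library size with TMM factors). Of the 8, 0 were called, against 9.61% of all genes tested. At an adjusted p under 0.05, which 36.5% of all genes tested passed, NR0B1 (log2 fold change 0.29) and NKX2-2 (0.20) were higher. PRKCB (-0.23) and FCGRT (-0.16) were lower at that limit, and CD99, STEAP1, LIPI and BCL11B did not pass it. Epithelial markers summed to 0.475 to 0.875 CPM with GRHL2 at 0 counts, and of the blood markers PTPRC had 0 or 1 count and CD3E 0, while the list summed to 4.84 to 7.76 CPM and 1 of 3 tested, ITGAM, was called higher. Liver and skeletal muscle markers had 0 to 3 counts each. Fibroblast and matrix markers summed to 308 and 330 CPM in DMSO and to 523 and 550 CPM in CBL0137. Of them, 3 of 4 tested members (PDGFRB, DCN and COL1A1) were called higher, while LUM had 6 to 9 counts and PDGFRA 4 to 13. Over all genes tested, 6.88% were called higher. In bulk RNA, fewer cells of a type and less RNA per cell cannot be told apart.

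The comparison asked how the transcripts of this axis stand after 24 h of CBL0137. IGFBP4 rose 1.59-fold, and it was the only member called. IGFBP2 and IGF2R were higher, and IGF1R and IRS2 lower, at an adjusted p under 0.05 but by less than 1.5-fold. IGF1, INSR, IRS1, IGFBP3 and IGFBP5 did not pass. Thus 1 of 10 members was called, against a background of 9.61% of the genes tested. That member was higher, where 6.88% of the genes tested were, and 0 members were called lower, where 2.73% were; DESeq2 and limma-voom also called 1 member. At an unadjusted p under 0.05 there were 5 members, 2 of them lower, where 44.8% of all genes tested passed and 22.8% were lower. At an adjusted p under 0.05 with no fold limit there were 5 of 10 members, 3 higher and 2 lower, against a background of 36.5% of all genes tested, 17.5% higher and 19.0% lower. The CPM of the conditions did not overlap for the same 5 members (3 higher and 2 lower), while over all genes tested it did not overlap for 66.9% (33.5% with CBL0137 higher and 33.4% with it lower). The median log2 fold change was 0.06 over the members and 0.003 over all genes tested, and the median size of the log2 fold change, without its sign, was 0.21 and 0.22.

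**Figure D1:**
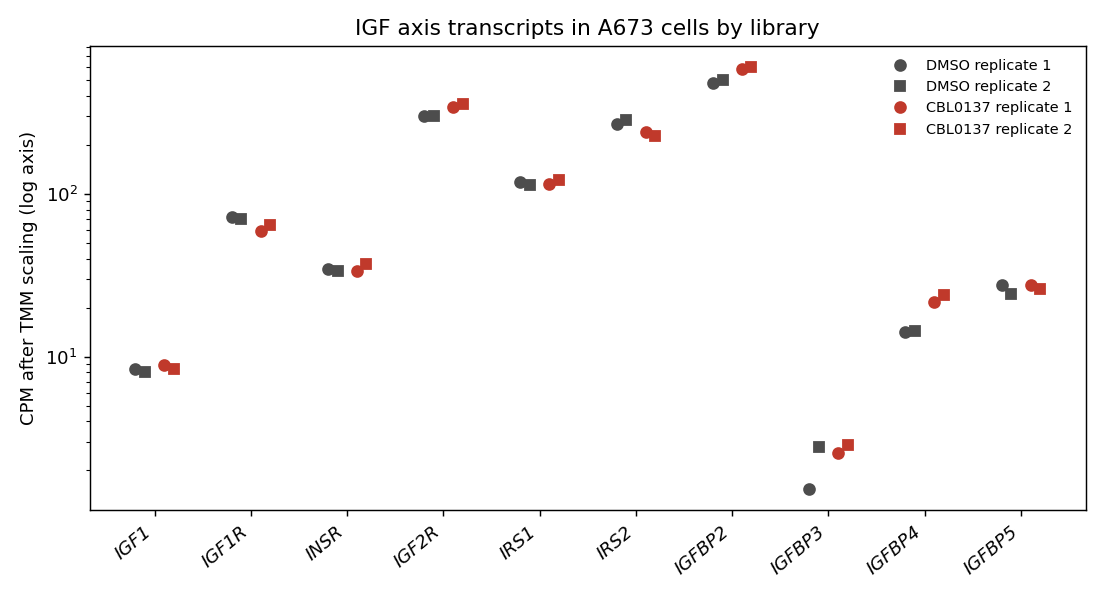
CPM after TMM scaling (log axis) of each IGF axis gene in the 2 DMSO libraries (grey) and the 2 CBL0137 libraries (red), with circles for replicate 1 and squares for replicate 2. Within each gene the points can be compared: those of IGFBP4, IGFBP2 and IGF2R are higher in CBL0137, those of IGF1R and IRS2 are lower, and those of the other 5 genes overlap.

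The sequences upstream of the 5 members that passed the adjusted p are shown, because these genes moved in both directions and the ETS family, to which the FLI1 part of the fusion protein belongs, binds around the letters GGAA. Each run is the 250 bases before the RefSeq start, taken from the RefSeq promoter table (GRCh38.p14) and found once in GRCh37, in the gene's own direction, with GGAA or its complement TTCC in capitals. None overlaps an annotated exon. The runs lie at chr17:38599452-38599701 for IGFBP4, chr2:217497301-217497550 for IGFBP2 and chr6:160389864-160390113 for IGF2R, all on the plus strand, at chr15:99191518-99191767 for IGF1R on the plus strand, and at chr13:110438931-110439180 for IRS2 on the minus strand, all in GRCh37.
IGFBP4: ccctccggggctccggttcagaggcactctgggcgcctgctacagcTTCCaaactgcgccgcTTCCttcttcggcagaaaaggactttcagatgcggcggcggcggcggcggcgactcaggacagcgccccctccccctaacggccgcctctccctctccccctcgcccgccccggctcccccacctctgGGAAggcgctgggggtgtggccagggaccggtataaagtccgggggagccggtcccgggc
IGFBP2: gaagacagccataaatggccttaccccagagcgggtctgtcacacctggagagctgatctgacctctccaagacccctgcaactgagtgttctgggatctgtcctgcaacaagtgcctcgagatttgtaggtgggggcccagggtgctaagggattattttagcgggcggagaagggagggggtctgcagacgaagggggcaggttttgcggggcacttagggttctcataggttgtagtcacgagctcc
IGF2R: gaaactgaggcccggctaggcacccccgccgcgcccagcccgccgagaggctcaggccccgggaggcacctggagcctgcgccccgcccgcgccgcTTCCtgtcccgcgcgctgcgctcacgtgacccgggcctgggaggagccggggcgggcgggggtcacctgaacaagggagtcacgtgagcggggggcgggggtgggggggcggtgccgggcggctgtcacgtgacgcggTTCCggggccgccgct
IGF1R: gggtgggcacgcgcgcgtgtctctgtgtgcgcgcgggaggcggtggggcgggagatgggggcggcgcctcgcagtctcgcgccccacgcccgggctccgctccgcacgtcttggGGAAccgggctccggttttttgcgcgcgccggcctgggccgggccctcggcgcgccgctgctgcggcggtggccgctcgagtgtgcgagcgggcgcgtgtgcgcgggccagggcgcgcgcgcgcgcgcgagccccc
IRS2: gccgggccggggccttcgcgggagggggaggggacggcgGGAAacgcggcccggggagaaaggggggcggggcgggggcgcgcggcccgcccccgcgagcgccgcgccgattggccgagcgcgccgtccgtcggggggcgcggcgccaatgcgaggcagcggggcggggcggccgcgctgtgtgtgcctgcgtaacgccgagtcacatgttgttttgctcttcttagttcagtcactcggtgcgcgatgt
Counting both strands, GGAA occurred 3 times in the IGFBP4 run, 2 times in that of IGF2R, 1 time each in those of IGF1R and IRS2 and 0 times in that of IGFBP2. All 10 members matched the table, and 9 of them held GGAA in their 250 bases, against 92.7% of 35116 RefSeq promoters. None of the 10 held GGAAGGAA, the repeat of that core, which 3.06% of promoters held. The GC box GGGCGG was present in 8 of 10 members against 42.6% of promoters, with 6 copies in IGF2R and 5 in IRS2. The TATA box letters TATAAA were present in 1 member, IGFBP4, against 10.7%, and the forkhead letters GTAAACA in 1, IGF1, against 2.98%. These matches describe letters in a window and were not tested against the expression values.

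IGF1 (ENSG00000017427, chromosome 12, 102789652 to 102875522 on the minus strand of GRCh37), the only ligand among the members, measured 8.45 and 8.08 CPM in DMSO and 8.86 and 8.38 CPM in CBL0137. The libraries of the conditions overlapped, and the log2 fold change was 0.06 ± 0.13 (SE), with an edgeR adjusted p of 0.77. Of its exonic bases, 82.5% also lie in exons of HELLPAR, a noncoding gene on the opposite strand. Without strand, HTSeq by default leaves out reads that fit more than 1 gene, and no source used here gives the strand setting. HELLPAR itself had 67 to 90 counts per library and IGF1 182 to 194. In deposited FPKM IGF1 stood at 7.37 and 6.42 in DMSO and 6.34 and 6.08 in CBL0137, so the sign of its difference turned (log2 fold change of -0.13 by limma-trend, adjusted p = 0.383). The part of the overlap in this difference between scales was not tested.

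The kinase receptor IGF1R (ENSG00000140443, chromosome 15, 99191768 to 99507759, plus strand) measured 72.2 and 69.9 CPM in DMSO and 58.8 and 64.2 CPM in CBL0137. Both treated libraries were below both DMSO libraries, with log2 fold change -0.21 ± 0.06 (edgeR adjusted p = 0.00547). Leaving out CBL0137 replicate 1 brought this to -0.15 with an adjusted p of 0.0726, and on deposited FPKM, at 3.58 and 3.48 against 3.25 and 3.51, the conditions overlapped (-0.05 by limma-trend, adjusted p = 0.725). INSR (ENSG00000171105, chromosome 19, 7112266 to 7294425, minus strand), the insulin receptor, measured 34.4 and 33.4 CPM in DMSO and 33.6 and 37.0 CPM in CBL0137. These ranges overlapped, and the log2 fold change was 0.06 ± 0.07 (edgeR adjusted p = 0.564). The count ratio of IGF1R to INSR within a library, which needs no scaling for depth, was 2.10 and 2.09 in DMSO and 1.75 and 1.74 in CBL0137. The ratio was thus lower in both treated libraries, and the conditions did not overlap. INSR had 705 to 856 counts per library, so counting error in the ratio is larger than the difference seen between replicates. With 2 libraries against 2 an exact two-sided permutation test cannot give a p below 0.333.

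IGF2R (ENSG00000197081, chromosome 6, 160390114 to 160534539, plus strand), the receptor that clears IGF2, measured 300.1 and 299.9 CPM in DMSO and 342 and 357 CPM in CBL0137. Its treated libraries were both higher, by 0.22 ± 0.04 on the log2 scale (edgeR adjusted p = 2.49e-05), below the fold limit. Deposited FPKM showed the same order, with 14.9 and 14.1 in DMSO and 17.6 and 17.7 in CBL0137. There the log2 fold change was 0.27 by limma-trend, with an adjusted p of 0.0547. The count ratio of IGF2R to IGF1R was 4.16 and 4.29 in DMSO and 5.81 and 5.56 in CBL0137. The clearance receptor stood higher relative to the kinase receptor in both treated libraries, and the ratios did not overlap. Of the exonic bases of IGF2R, 2.53% also lie in the pseudogene CHP1P2, which had 75 to 136 counts per library.

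The substrates of the kinase receptors did not move alike. IRS2 (ENSG00000185950, chromosome 13, 110405042 to 110438930, minus strand), a docking protein for PI3-kinase, measured 270 and 284 CPM in DMSO and 241 and 228 CPM in CBL0137. Both treated libraries were lower, with log2 fold change -0.24 ± 0.04 (edgeR adjusted p = 2.56e-05). In deposited FPKM they were lower too, at 20.3 and 19.3 against 22.2 and 23.2 in DMSO. The adjusted p did not pass there (-0.19 by limma-trend, adjusted p = 0.111). IRS1 (ENSG00000169047, chromosome 2, 227596028 to 227664536, minus strand), the related docking protein, measured 118 and 114 CPM in DMSO and 115 and 122 CPM in CBL0137, and its conditions overlapped (0.03 ± 0.05, edgeR adjusted p = 0.677). The count ratio of IRS2 to IRS1 was 2.28 and 2.49 in DMSO and 2.11 and 1.86 in CBL0137, lower in the treated libraries without overlap, but with a gap between conditions smaller than the spread within each of them.

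**Figure D2:**
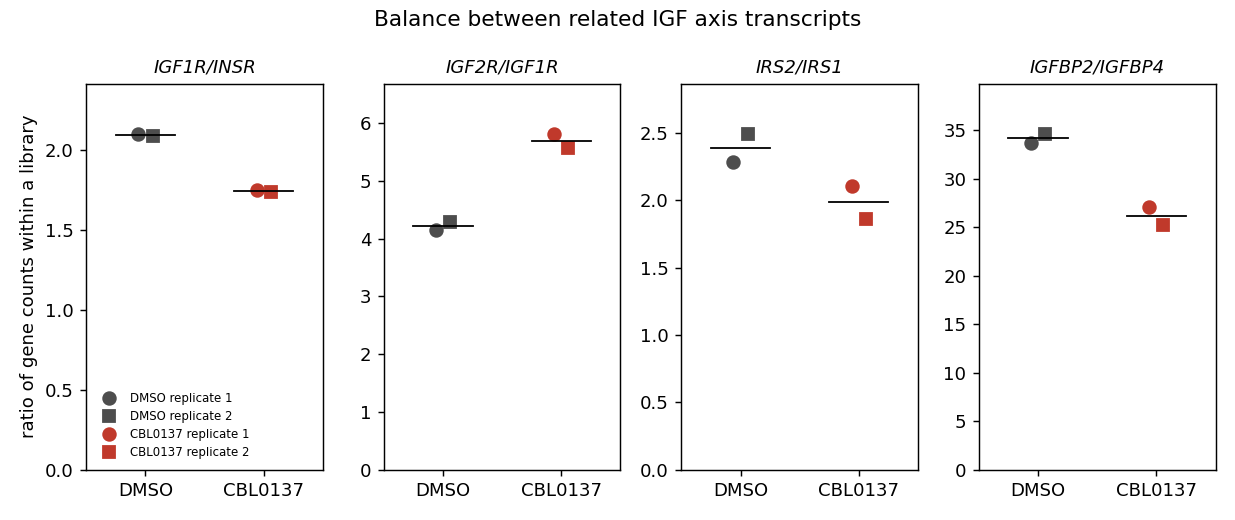
Ratio of gene counts within each library for 4 pairs of IGF axis genes, with DMSO in grey, CBL0137 in red and the mean of each condition as a black line (circle, replicate 1; square, replicate 2). IGF1R/INSR is 2.10 and 2.09 in DMSO against 1.75 and 1.74 in CBL0137, IGF2R/IGF1R is higher in CBL0137, and IRS2/IRS1 and IGFBP2/IGFBP4 are lower; the size of a ratio depends on gene length, so only its difference between conditions can be read.

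Among the binding proteins, IGFBP4 (ENSG00000141753, chromosome 17, 38599702 to 38613977, plus strand), which binds both IGFs and is known mainly as an inhibitor of their action, had 326 and 324 counts in DMSO and 455 and 551 in CBL0137. That was 14.3 and 14.4 CPM in DMSO and 21.7 and 23.8 CPM in CBL0137, or 14.3 ± 0.0861 and 22.7 ± 1.50 CPM (mean ± SD, n = 2 per condition). The conditions were well apart, and the transcript rose by 0.67 ± 0.09 on the log2 scale (edgeR adjusted p = 3.57e-06). Deposited FPKM showed the same rise, from 4.14 and 4.16 to 6.60 and 7.32. The estimate lay less than 1 SE above the fold limit of 0.58 on the log2 scale, and a test against that limit itself (glmTreat) did not pass it (adjusted p = 0.88). The fibroblast and matrix markers given above rose in the same libraries, and their part in the rise of IGFBP4 was not tested.

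IGFBP2 (ENSG00000115457, chromosome 2, 217497551 to 217529159, plus strand), a binding protein with a preference for IGF2, measured 481 and 498 CPM in DMSO and 587 and 601 CPM in CBL0137. Both treated libraries were higher, by 0.28 ± 0.03 on the log2 scale (edgeR adjusted p = 2.59e-07), inside the fold limit. IGFBP5 (ENSG00000115461, chromosome 2, 217536828 to 217560272, minus strand), which binds extracellular matrix as well as IGFs, is its neighbour on the chromosome and lies tail to tail with it. IGFBP5 measured 27.7 and 24.4 CPM in DMSO and 27.4 and 26.0 CPM in CBL0137, so its conditions overlapped (0.04 ± 0.08, edgeR adjusted p = 0.78). The noncoding gene DIRC3-AS1, with 3 to 7 counts per library, overlaps 7.53% of the exonic bases of IGFBP5 from the opposite strand. The count ratio of IGFBP2 to IGFBP5 was 17.4 and 20.4 in DMSO and 21.5 and 23.1 in CBL0137, and the ratio of IGFBP2 to IGFBP4 was 33.7 and 34.6 against 27.1 and 25.3. IGFBP4 thus gained on IGFBP2 although both were higher.

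IGFBP3 (ENSG00000146674, chromosome 7, 45951844 to 45961473, minus strand), the main carrier of IGFs in blood and the member known to be repressed by EWS-FLI1, was the weakest. It had 35 and 63 counts in DMSO and 54 and 66 in CBL0137, or 1.53 and 2.80 CPM against 2.57 and 2.85 CPM. DMSO replicate 1 was low and the other 3 libraries were close to each other, so the conditions overlapped. The log2 fold change was 0.33 ± 0.27 with an edgeR adjusted p of 0.377. It was -0.049 (adjusted p = 0.929) without DMSO replicate 1 and 0.81 (adjusted p = 0.0682) without DMSO replicate 2, so the value turned on which DMSO library was kept.

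**Figure D3:**
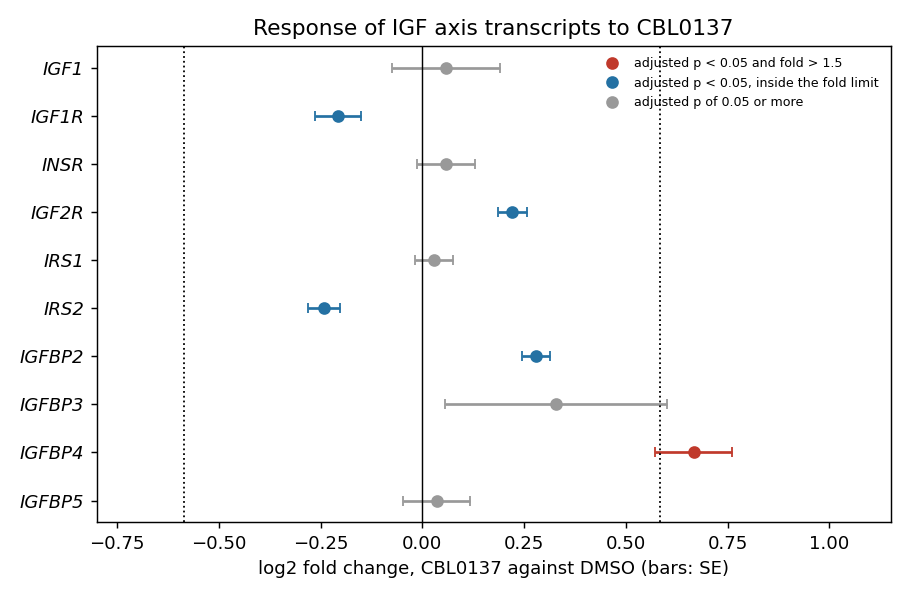
Log2 fold change of CBL0137 against DMSO for the 10 members by edgeR, with bars for 1 SE and dotted lines at a fold change of 1.5. IGFBP4 alone lies past a dotted line with an adjusted p under 0.05 (red), IGFBP2, IGF2R, IGF1R and IRS2 pass the adjusted p inside the lines (blue), and IGFBP3 has the widest bar.

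Levels of different genes were set in order per length only. In deposited FPKM of the DMSO libraries the order was IGFBP2 (225 ± 3.80), IRS2 (22.7 ± 0.721), IGF2R (14.5 ± 0.557), IRS1 (8.35 ± 0.390), IGF1 (6.90 ± 0.677), IGFBP4 (4.15 ± 0.0110), IGF1R (3.53 ± 0.0697), IGFBP5 (2.88 ± 0.190), INSR (2.43 ± 0.151) and IGFBP3 (0.620 ± 0.226), each as mean ± SD with n = 2. Over all 4 libraries the FPKM ranges of IGF1 and IGFBP4 overlapped, as did those of IGFBP5 and INSR, while no other pair of neighbours in this order overlapped. In CBL0137 IGFBP4, at 6.96 ± 0.506, stood above IGF1, at 6.21 ± 0.186. Gene counts per kilobase of annotated exon (scaled as CPM) gave the same order in DMSO with 1 exception: IGF1 stood at place 9, at 0.996 ± 0.0309. The kinase receptors IGF1R and INSR were thus among the lower members per length, and IGFBP2 was at the top on both scales.

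**Figure D4:**
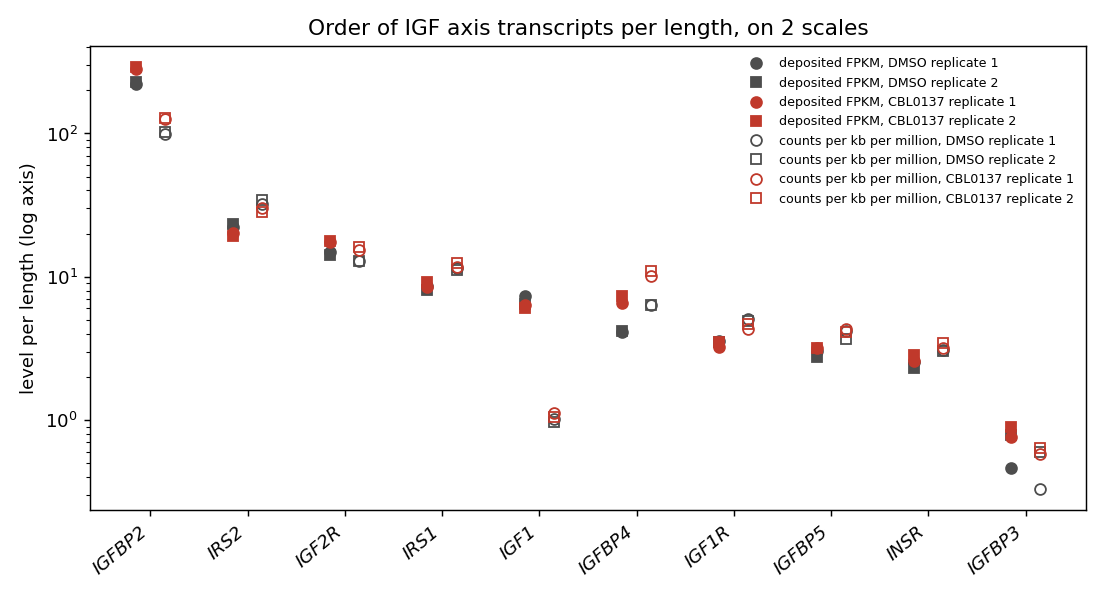
Level per length (log axis) of each member by library, as deposited FPKM (filled) and as gene counts per kilobase of annotated exon, scaled as CPM (open), ordered by the mean FPKM in DMSO (grey, DMSO; red, CBL0137; circle, replicate 1; square, replicate 2). IGFBP2 stands above all other members on both scales, and IGF1 is the member whose scales differ most.

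IGFBP2 made up most of the binding protein message. Of the summed FPKM of IGFBP2 to IGFBP5 it took 96.7% in each DMSO library, and 96.4% and 96.2% in CBL0137 replicates 1 and 2. IGFBP4 took 1.80% and 1.77% in DMSO and 2.25% and 2.42% in CBL0137, and IGFBP3 no more than 0.331% in any library. In counts per kilobase the share of IGFBP2 was 90.4% ± 0.317 in DMSO and 89.3% ± 0.213 in CBL0137. Both scales gave IGFBP2 a slightly smaller share, and IGFBP4 a larger one, in the treated libraries.

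Of the remaining ligand, receptor and binding protein genes, several were at or near 0. IGF2 had 1 count in DMSO replicate 1 and 0 in the other libraries, and INS and IGFBP1 had 0 in each. A count of 0 allows up to 3 counts, or 0.146 CPM in the shallowest library, for counting error only. Of the exonic bases of IGF2, 44.4% lie in exons of other genes, 43.2% on the same strand, where reads that fit more than 1 gene may be left out of each. INS-IGF2 and IGF2-AS had 0 counts, and the deposited FPKM of IGF2 was 0.127 and 0.0455 in DMSO and 0.0958 and 0.139 in CBL0137, so the counts do not settle whether IGF2 was expressed. IGFBP7 had 0 to 4 counts per library. IGFBP6, which prefers IGF2, measured 3.68 and 3.95 CPM in DMSO and 6.10 and 4.71 CPM in CBL0137 (0.50 ± 0.19, edgeR adjusted p = 0.0398), and was not called. Its value hung on single libraries: it was 0.30 (adjusted p = 0.341) without CBL0137 replicate 1 and was called at 0.67 (adjusted p = 0.00949) without CBL0137 replicate 2, while DESeq2 gave an adjusted p of 0.174. Of 9 genes in this list, 4 were tested, 1 rose and 1 fell, against 6.88% and 2.73% of all genes tested. Both called genes had few counts per library, 26 to 89 for INSRR and 6 to 30 for IGFALS. INSRR, an orphan relative of the insulin receptor, rose from 1.14 and 1.60 to 2.57 and 3.84 CPM (1.23 ± 0.28, edgeR adjusted p = 0.00117). IGFALS, which holds circulating IGF complexes together, fell from 0.700 and 1.33 to 0.524 and 0.259 CPM (-1.38 ± 0.50, edgeR adjusted p = 0.0333). DESeq2 gave IGFALS no adjusted p, so it could not be called there. It was not called without CBL0137 replicate 2 (-0.95) or DMSO replicate 2 (-0.85).

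Genes that act on IGFs outside the cell and on IGF messages were mostly inside the fold limit. Of 6 tested proteases of binding proteins and their inhibitors, edgeR, DESeq2 and limma-voom called 0, with 2 at an unadjusted p under 0.05 in edgeR, which 44.8% of all genes tested passed. These were PAPPA, a protease that cleaves IGFBP4, at 123 and 124 CPM in DMSO against 98.0 and 96.4 CPM in CBL0137 (-0.34 ± 0.05, edgeR adjusted p = 1.08e-06), and STC1, known as an inhibitor of PAPPA, at 51.7 and 55.2 against 37.7 and 45.4 CPM (-0.36 ± 0.07, edgeR adjusted p = 0.00030). Both were lower in each treated library, inside the fold limit. The 3 mRNA-binding proteins named for IGF2 were all measured, and the same tools called 0, with 2 at an unadjusted p under 0.05 (44.8% of all genes). IGF2BP1 measured 409 and 400 CPM in DMSO against 442 and 433 CPM in CBL0137 (0.11 ± 0.03), and IGF2BP3 75.5 and 73.6 against 69.8 and 67.7 CPM (-0.12 ± 0.05).

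Inside the cell, of 16 adaptors and receptor brakes the same tools called 0, while 9 had an unadjusted p under 0.05 in edgeR, against the same 44.8% of all genes. NEDD4, a ubiquitin ligase, measured 67.4 and 69.7 CPM in DMSO and 49.7 and 44.8 CPM in CBL0137 (-0.54 ± 0.06, edgeR adjusted p = 8.69e-08), and passed the fold limit without CBL0137 replicate 1 (-0.62). PTPN11, the phosphatase SHP2 that relays receptor signals to RAS, measured 342 and 349 against 302 and 305 CPM (-0.18 ± 0.04). Of 23 genes of the PI3-kinase, AKT and mTORC1 chain, 1 fell, 0 rose and 22 were not called, where 6.88% of all genes rose and 2.73% fell. At an adjusted p under 0.05 in edgeR, 4 of the 23 were higher and 9 were lower, against 17.5% and 19.0% of all genes. EIF4EBP1, the translation repressor that mTORC1 inactivates, fell from 157 and 160 to 98.9 and 102 CPM (-0.66 ± 0.04, edgeR adjusted p = 9.27e-12). RHEB, the GTPase that activates mTORC1, measured 130 and 144 CPM in DMSO and 101 and 96.0 CPM in CBL0137 (-0.48 ± 0.05) and stayed inside the fold limit.

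FOXO factors are proteins that AKT restrains. Of 15 genes for FOXO factors and their targets, 1 fell, 0 rose and 14 were not called, where 6.88% of all genes rose and 2.73% fell. At an adjusted p under 0.05, 1 of the 15 was higher and 6 were lower, against 17.5% and 19.0% of all genes. CCNG2, an atypical cyclin, fell from 23.3 and 24.2 to 13.9 and 14.9 CPM (-0.72 ± 0.09, edgeR adjusted p = 7.95e-07). CDKN1B, the cyclin-dependent kinase inhibitor p27, measured 79.9 and 82.5 CPM in DMSO and 55.0 and 57.5 CPM in CBL0137 (-0.53 ± 0.05), inside the fold limit. The median log2 fold change was -0.28 in this list, -0.08 in the PI3-kinase chain and -0.11 among adaptors, beside 0.003 for all genes tested. Over the 67 tested genes of all 6 further lists, 1 rose and 3 fell, against 6.88% and 2.73% of all genes. By limma-trend on log2(FPKM + 1), 0 of these 4 genes were called. In that fit 18 genes of the lists had an unadjusted p under 0.05, beside 4556 of all 14139 genes tested there. INSRR and IGFALS were under the FPKM filter of 1, EIF4EBP1 lay just inside the fold limit (-0.583, adjusted p = 0.0137) and was called on log2(FPKM + 0.1) (-0.588), and CCNG2 was at -0.41 (adjusted p = 0.0651).

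**Figure D5:**
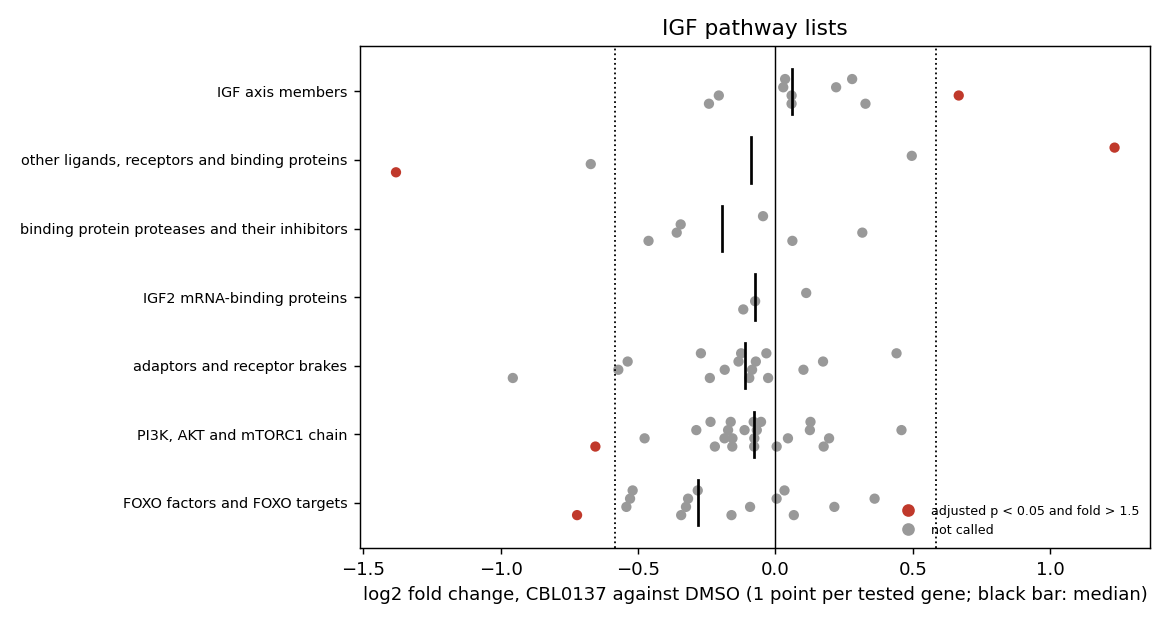
Log2 fold change of CBL0137 against DMSO by edgeR for each tested gene of the IGF axis and of 6 further pathway lists (1 point per gene, red where called; black bar, median; dotted lines, fold change of 1.5). Called genes are IGFBP4 among the members, and INSRR, IGFALS, EIF4EBP1 and CCNG2 in the other lists.

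The 3 genes whose pattern over the 4 libraries was nearest to that of IGFBP4 were taken from the 11338 tested genes that averaged 5 CPM or more, by the Euclidean distance of log2 CPM after subtraction of the DMSO mean. They were ENSG00000287222, which has no symbol, at a distance of 0.0156, ISYNA1, an enzyme of inositol synthesis, at 0.0322, and KLF10, a zinc finger transcription factor, at 0.0346. ISYNA1 measured 144.1 and 143.9 CPM in DMSO and 221 and 235 CPM in CBL0137. KLF10 measured 26.6 and 27.3 CPM in DMSO and 40.4 and 43.8 CPM in CBL0137. As with IGFBP4, CBL0137 replicate 2 was the higher treated library for all 3, and 4 libraries in 2 conditions cannot separate this likeness from the fold change itself.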

How the data were processed

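RNA of 4 A673 libraries was measured by RNA-seq, and groups came from the sample titles. Trim Galore, HISAT2 (hg19) and HTSeq 0.11.1 gave the deposited counts per gene, and the authors tested them with DESeq2 1.26.0, per the submitters' processing notes and design text. The notes also list a mouse build, with no role stated. Per the design text, the authors made the deposited FPKM values from reads per gene, gene length and depth. They did not follow from the deposited counts with 1 length per gene. The length they implied differed between libraries by 1.10-fold in the median over 11102 genes, and by 1.28-fold for IGF1. PIK3R2, of the PI3-kinase chain, had 2 and 3 counts in DMSO and 0 in each CBL0137 library. Its FPKM was 14.6 and 15.0 in DMSO and 13.8 and 13.1 in CBL0137. PIK3R2 did not pass the filter on low counts. Of its exonic bases, 76.4% also lie in exons of another gene on the same strand. The part of this overlap in the difference between scales was not tested. Strand setting, annotation release and RNA selection: not given in the sources used here. HTSeq summary rows, 23.7% to 24.8% of reads, were left out.

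Counts were tested with edgeR 4.0.16 in R 4.3.3 over 17309 genes (TMM factors, filterByExpr at a minimum count of 10, quasi-likelihood test, Benjamini-Hochberg adjustment over all of them). Called means an adjusted p under 0.05 together with over 1.5-fold, the limits of the design text. The SE is the size of the log2 fold change divided by the square root of F. Symbols, positions and exon lengths came from GENCODE 44 on GRCh37 (hg19), which named 58524 of 60617 genes. The fit was tested on simulated data. Alternatives were other scalings and filters, DESeq2 1.42.0, limma 3.58.1 (voom, and trend on log2(FPKM + 1)), other fold limits, each replicate left out and a replicate block.

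The members and lists were chosen with earlier results of these data known. Named genes are all members, up to 3 called genes of each list by adjusted p (the 2 smallest where fewer than 2 were called), IGF2, IGFBP6 and IGFBP7, and the 3 nearest in pattern to the member with the largest change.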

Additional observations from a re-analysis of the deposited data

How the results depend on the processing

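Of 23 named genes, 6 kept their direction and stayed uncalled under every alternative run, namely IGF1R, IGF2R, IRS2, IGF2BP1, IGF2BP3 and PTPN11. By limma-trend on log2(FPKM + 1) with a filter, IGFBP2 (adjusted p = 0.0183) and IGFBP4 (adjusted p = 0.0226) passed the adjusted p of 0.05. IGF1R, IGF2R and IRS2, which passed it in the main test, did not pass it there. IGFBP4 kept its call under 15 of 18 alternatives (0.59 to 0.73), and lost it under glmTreat, a fold limit of 2 and limma-trend on log2(FPKM + 1) without a filter (adjusted p = 0.109). Members near 0 turned in sign: IGF1 under limma-trend on log2(FPKM + 1), with or without a filter (-0.13 in each), and on log2(FPKM + 0.1) (-0.15). With single replicates left out, IGFBP5 ranged from -0.061 to 0.12, INSR from -0.016 to 0.12, IRS1 from -0.022 to 0.070 and IGFBP3 from -0.049 to 0.81. In these fits 1 library stands alone in its condition and is assumed to vary like those of the other. The cause was not tested.

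The genes called, 1663 in the main test, numbered 1053 by DESeq2, 399 by glmTreat, 577 and 726 by limma-trend on log2(FPKM + 1) and log2(FPKM + 0.1), 4230 at a fold limit of 1.2 and 736 at 2, and 1343 to 1591 with a replicate left out. Without a filter, limma-trend on log2(FPKM + 1) called 0 of 37198 genes, with 6361 at an unadjusted p under 0.05. With the filter 4556 of 14139 genes had such a p, and by glmTreat 1219 of 17309. Members called, 1 in the main test, were 0 by glmTreat (0 at an unadjusted p under 0.05 there), 0 by unfiltered limma-trend (4 at an unadjusted p under 0.05), 2 at a fold limit of 1.2 (IGFBP2 and IGFBP4) and 0 at 2. Genes of the other lists called, 4 in the main test, were 0 by glmTreat (4 at an unadjusted p under 0.05), 1 on log2(FPKM + 0.1), 0 on log2(FPKM + 1) with or without a filter (20 and 18 at an unadjusted p under 0.05 without and with it), 19 at a fold limit of 1.2 and 2 at 2, and 4 to 6 with a replicate left out.

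In counts per kilobase (scaled as CPM), the DMSO levels were 101 for IGFBP2, 33.2 for IRS2, 13.0 for IGF2R, 11.3 for IRS1, 6.35 for IGFBP4, 4.98 for IGF1R, 3.93 for IGFBP5, 3.06 for INSR and 0.996 for IGF1, and the share of IGFBP2 among IGFBP2 to IGFBP5 was 90.4% in DMSO and 89.3% in CBL0137. Same-numbered libraries did not deviate together (correlation of -0.09 over 11338 genes), so no pairing by number was seen. With 2 libraries per condition this cannot settle whether the numbers pair them. With the replicate number as a replicate block, 1576 genes, 1 member and 3 genes of the other lists were called, and IGFALS lost its call (-1.36, adjusted p = 0.0549). IGFBP6 then had an adjusted p of 0.0530. The lowest counts among the named genes with a test were those of IGFBP3, INSRR, IGFALS and IGFBP6, each under 150 per library, so counting error weighs most on these.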
